A study of Mus musculus with 12 samples.

Results

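The 33 genes described here encode proteins of fatty acid uptake, storage, activation, the carnitine shuttle, acyl-CoA dehydrogenation and electron transfer, with several well-known targets of the peroxisome proliferator-activated receptors (PPARs). They were chosen by name, with earlier results of these data known. For each, the row of the normalised count table with that symbol was taken from 54751 features. All 33 had a row and all 33 were among the 18250 features tested. The tissue was whole heart of C57BL/6N mice aged 52 weeks, sequenced as total RNA after ribosomal depletion. The control group held 3 libraries of Rexo2loxP/loxP mice, in which both Rexo2 alleles carry loxP sites. The knockout group held 3 libraries labelled with the same floxed alleles plus +/Ckmm, an allele named after muscle creatine kinase, whose promoter is widely used to express Cre recombinase in heart and skeletal muscle. Cells of the heart other than muscle would keep the gene in such a model, and effects of the Ckmm allele and of Rexo2 loss cannot be told apart. Rexo2 encodes a small exonuclease that degrades very short RNAs, including dinucleotides. No label states that the libraries of a group came from separate mice, so the p-values reflect only library-to-library spread, part of which may be technical.

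The heart takes most of its energy from fatty acids. Lipoprotein lipase frees them from circulating triglyceride, CD36 and FATP1 carry them in, and cytosolic binding proteins hold them until acyl-CoA synthetase activates them. They then enter mitochondria through the carnitine shuttle for beta-oxidation or are stored as triglyceride in lipid droplets, from which lipases release them again. PPARs, chiefly PPAR alpha in the heart, are nuclear receptors that bind fatty acids and raise transcription of many of these genes together with retinoid X receptors.

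Libraries are named by group and the number in the table's header, such as control 490. Depth ranged from 41979163 to 50764023 reads per library. Control 490 stood apart on the first principal component of all tested features (26.4% of the variance) at -30.1. Knockout 501 and 492 lay at -5.63 and -5.36, and control 498, control 502 and knockout 499 at 9.05, 15.4 and 16.7. For several fold changes and ranges that rest on control 490, values without it are given as well. Counts of library order and of SD, and the medians by library, are given only with it. Rexo2 lay between 293 and 368 normalised counts in the controls and between 274 and 314 in the knockout group, with overlap. Counts per gene do not show whether the floxed part is deleted, and knockout refers to the label throughout. Summed normalised counts of 9 cardiomyocyte markers ranged from 549603 to 589680 in control and from 540284 to 570715 in knockout libraries. Defining adipocyte markers were at or near 0, with Lep at 0 in all 6 libraries, Adipoq at no more than 1.02 and the sum of all 8 between 1.88 and 14.2.

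No gene of the set passed the test between the genotypes. limma, fitted on log2(normalised count + 1) over all tested features with Benjamini-Hochberg adjustment at 0.05, called 0 of the 33 higher and 0 lower in the knockout group, where it called 0% of all features higher and 0.0219% lower. Their adjusted p-values were all 1.00. At an unadjusted p under 0.05 limma had 1 gene higher and 0 lower, against 1.72% and 1.98% of all features. edgeR called 0 of the 33 (0.0274% of all features), DESeq2 called 0 of the 30 to which it gave an adjusted p (0.456% of features), and the authors' deposited table also called 0 of 30 (0.437%). The median log2 fold change, knockout minus control, was 0.031 over the 33 genes and 0.00056 over all tested features. Without control 490 these were 0.14 and -0.00028, and without control 502 the median of the 33 was -0.057.

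The precision behind these misses varied between the genes. For 20 of the 33 limma's 95% interval of the log2 fold change lay within a 1.2-fold change either way, and for 30 within 1.5-fold. The 3 with wider intervals were Angptl4 (-0.46 to 1.49), Ucp3 (-0.55 to 1.05) and Acot1 (-0.64 to 0.35). limma draws each gene's variance toward that of features of like level, so its intervals may be too narrow for genes that vary more. The authors' deposited table gave larger standard errors (SE) for Ucp3 (0.63 against 0.37), Angptl4 (0.73 against 0.45), Plin5 (0.32 against 0.19) and Lipe (0.30 against 0.18). The counts above hold for limma's intervals only. The groups did not overlap in 3 genes with the knockout group higher and in 1 with it lower, where 4.61% and 4.9% of all tested features had such values. These were Acadl, Acot13 and Plin2, and, lower, Acads.

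**Figure D1:**
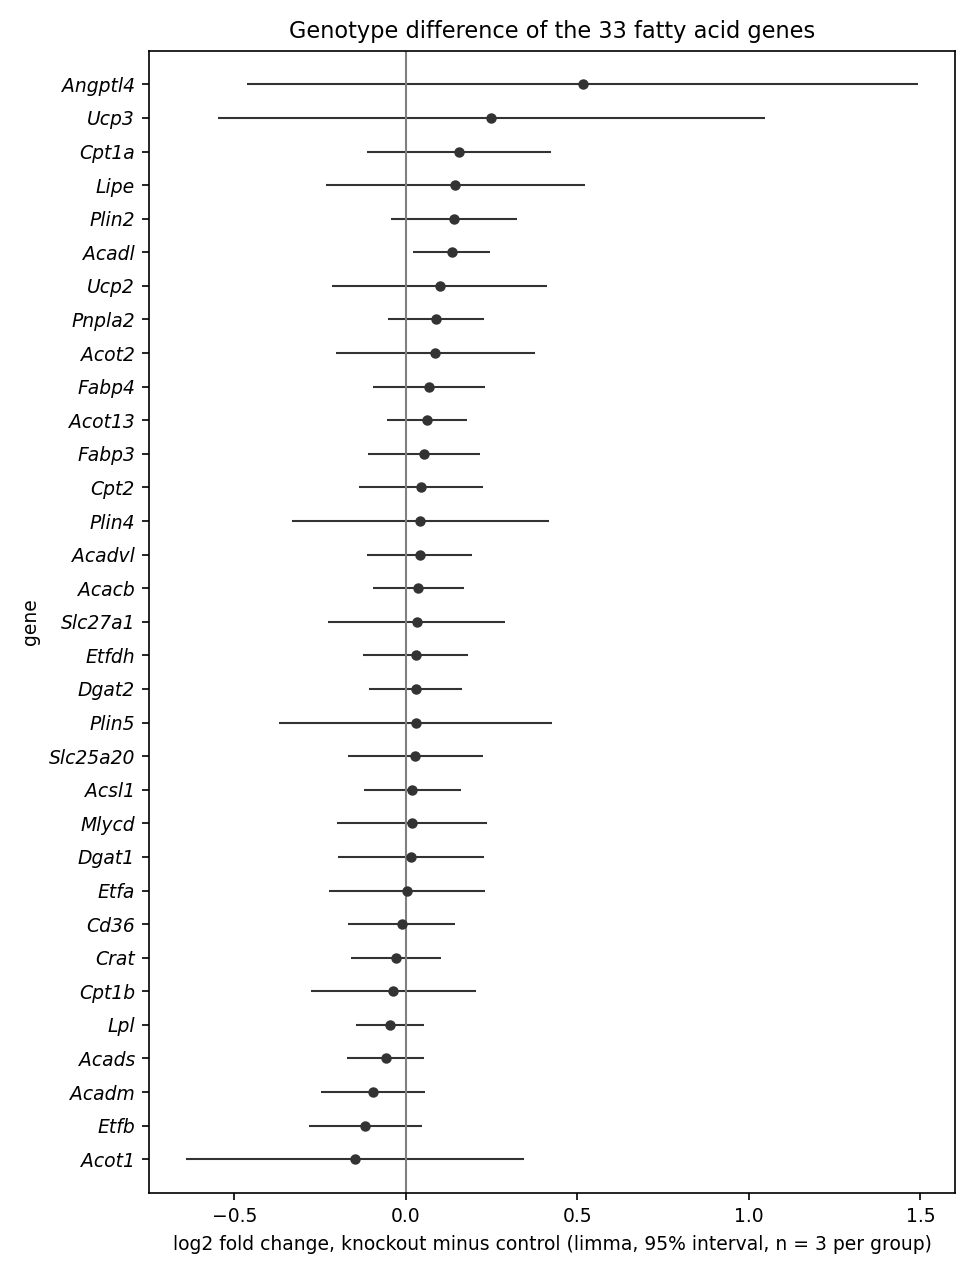
Log2 fold change of each of the 33 genes, knockout minus control, with 95% intervals from limma (x axis, n = 3 libraries per group; genes on the y axis). Only the interval of Acadl leaves out 0, at 0.02 to 0.25 before adjustment, and the widest interval is that of Angptl4.

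What most of the genes shared was the order of the libraries within each genotype. Control 490 was the highest control in 31 of the 33 genes, against 34.8% of all tested features, the exceptions being Lpl and Dgat1. Control 502 was the lowest control in 25 (33.4% of all features). In the knockout group, library 501 was the highest in 20 genes and library 492 in 12, while library 499 was the lowest in 28 (32.2% of all features). For 22 of the 33 genes, 66.7%, the 3 highest of the 6 libraries were control 490, knockout 492 and knockout 501, which was the case in 6.59% of all tested features and in 6.94% of the 11943 features whose means lay within the range of the 33. These same 3 libraries were the 3 lowest for none of the 33 genes and for 6.31% of all features. This order was noticed in the data, has no test, and comes from 6 libraries that all 33 genes share, so the counts are not independent observations. The genes were also chosen with earlier results of these data known. It runs across the genotypes, 1 of the 3 libraries being a control. By sign, the first principal component of all tested features splits the libraries in the same way. That split is thus not particular to these genes. Control 490 lay farthest out on that component, at -30.1, with knockout 501 and 492 at -5.63 and -5.36. On the second component (22.5% of the variance) knockout 492 and 501 lay at opposite ends, 25.5 and -25.9.

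**Figure D2:**
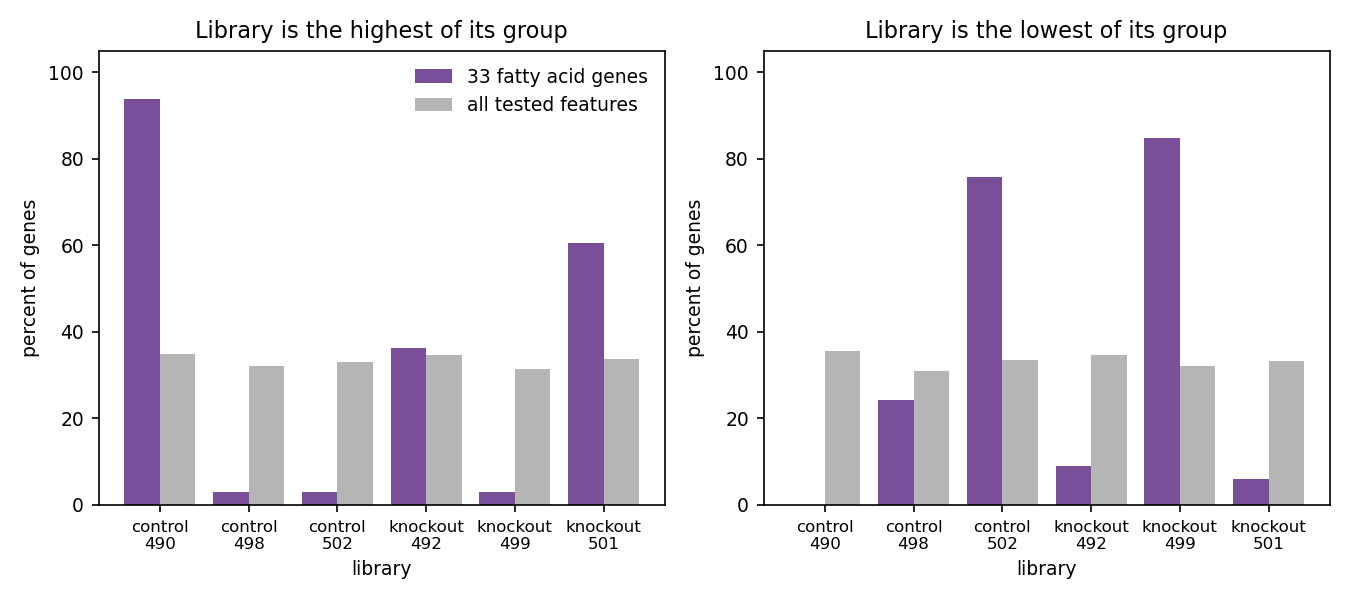
Share of genes (y axis, percent) for which each library (x axis) was the highest (left) or the lowest (right) of the 3 libraries of its own group, for the 33 fatty acid genes and for all tested features. Control 490 was highest among controls in 93.9% of the 33, and knockout 499 was lowest in its group in 84.8%, while the bars for all features stay between 30.9% and 35.7%.

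The median of the 33 genes, each taken relative to its own mean on the log2 scale, was 0.15 in control 490, 0.088 in knockout 501 and 0.078 in knockout 492, and -0.067, -0.12 and -0.13 in control 498, knockout 499 and control 502. Over all tested features the same medians lay between 0.0021 and 0.0036. For the 19 genes listed as PPAR-responsive the spread was wider, from 0.19 in control 490 to -0.16 in control 502, than for the other 14, from 0.11 to -0.099. The 14 were Slc27a1, Acot2, Acot13, Cpt2, Acacb, Acadl, Acads, Acadvl, Etfa, Etfb, Etfdh, Lipe, Dgat1 and Dgat2. Control 490, knockout 492 and knockout 501 were the 3 highest libraries in 15 of the 19 and 7 of the 14. That list was drawn up with earlier results of these data known and may leave out targets, and the difference was not tested. The SD within groups exceeded the 90th percentile of features with a mean within 2-fold in 16 of the 33 genes. Against all tested features, 3 of the 33 exceeded the 90th percentile and 15 the median. The highest library exceeded the lowest by more than 2-fold in 3 genes and by more than 1.5-fold in 10, and by less than 1.2-fold in 9.

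**Figure D3:**
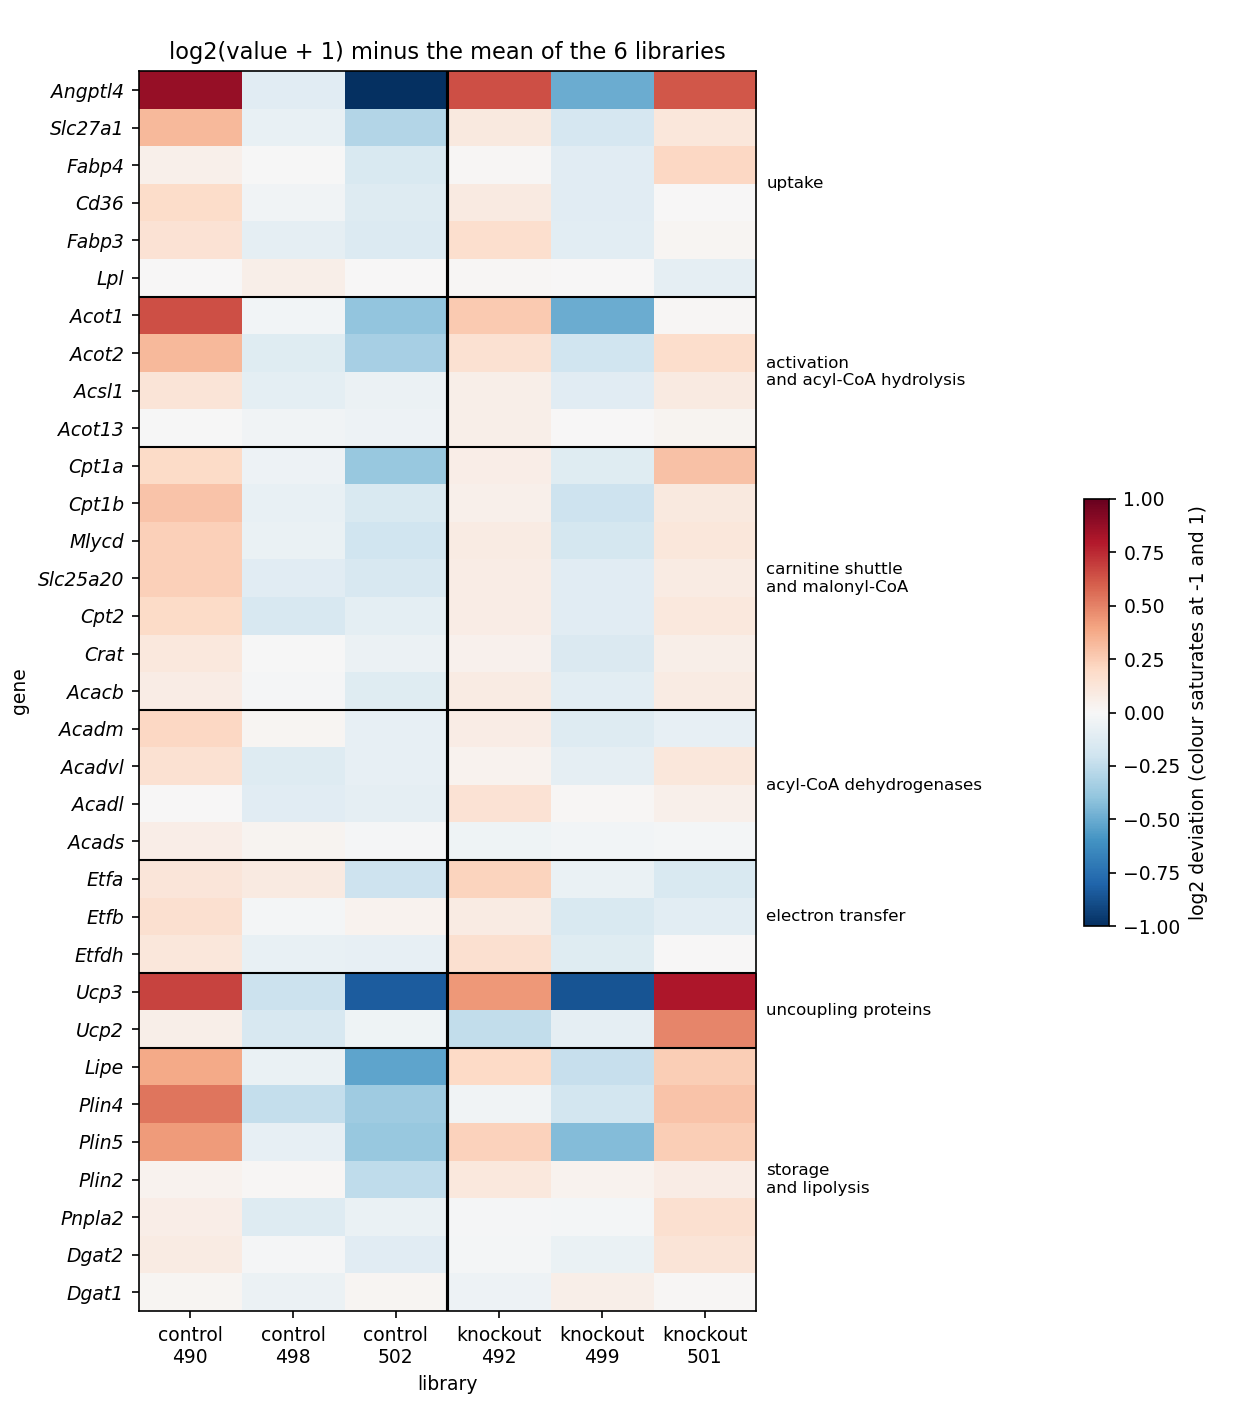
Each of the 33 genes (rows, grouped by role) in each of the 6 libraries (columns) as log2(normalised count + 1) minus the gene's mean over the libraries, red above and blue below. Control 490, knockout 492 and knockout 501 are red in most rows, control 502 and knockout 499 blue, and Angptl4 and Ucp3 have the strongest colours.

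Among the uptake genes the widest spread belonged to Angptl4 (ENSMUSG00000002289.16, chromosome 17, 33774900 to 33781575, GRCm38.p6), which encodes a secreted inhibitor of lipoprotein lipase and is a classic PPAR target. Its normalised counts were 133 in control 490, 66.7 in control 498 and 24.4 in control 502. Knockout libraries 492, 499 and 501 had 114, 51.1 and 112. Control 490 and knockout 492 and 501 lay above the other libraries in both groups, and the groups overlapped. The highest library exceeded the lowest 5.45-fold, 4.66-fold without control 490 and 2.60-fold without control 502. The lowest value rests on 24 reads and the highest on 149, with exact Poisson intervals of 15.6 to 36.3 and of 113 to 156 normalised counts, which cover counting error only and do not overlap. The log2 fold change was 0.52 (SE 0.45, limma adjusted p = 1.00), 1.08 without control 490 and -0.12 without control 502. Leaving out a knockout library gave 0.32 (492), 0.89 (499) or 0.33 (501). edgeR gave 0.27 and DESeq2 0.30.

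Lpl, the lipase that Angptl4 inhibits (chromosome 8, 68880555 to 68906932), varied little and in another order. It was measured at 49001, 50843 and 48753 normalised counts in control 490, 498 and 502, and at 49258, 48864 and 45919 in knockout 492, 499 and 501. Its highest library exceeded its lowest only 1.11-fold, and its log2 fold change of -0.05 had a 95% interval from -0.14 to 0.05. Cd36, the main fatty acid translocase of the muscle membrane (chromosome 5, 17781690 to 17888959), held 15106, 12967 and 12138 counts in control 490, 498 and 502. The knockout libraries 492, 499 and 501 held 14162, 12261 and 13354, within the range of the controls. Slc27a1, which encodes the transport protein FATP1, ran from 1775 in control 502 to 2718 in control 490, with the knockout group between 1937 and 2356. Its 1.53-fold range was 1.33-fold without control 490.

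The binding proteins Fabp3, the heart form, and Fabp4, the form of fat cells and capillary endothelium, shared this order with smaller ranges. Fabp3 ran from 7346 to 8926 counts in control and from 7499 to 9076 in knockout libraries, and Fabp4 from 2277 to 2627 and from 2340 to 2921. The pseudogene Fabp3-ps1, looked at because its symbol names Fabp3, had a mean count of 33418 ± 2908 in the controls and 36027 ± 2482 in the knockout group (SD, n = 3 each). The sources used here do not tell how reads matching both were assigned, so the level of Fabp3 is uncertain. Counts of 8 endothelial markers were summed. The sum was lower in the 3 libraries where most of the fatty acid genes were high (12286 to 12601) than in the other 3 (13041 to 13288). It thus moves opposite to the order of Fabp4 and Cd36, but a sum does not show the order of each endothelial gene. Gpihbp1 is among these 8 markers and also on the further list of uptake, activation and storage genes. It was highest in the same 3 libraries as most of the fatty acid genes, against the direction of the sum. The part of the endothelial sum in these levels was not tested. In whole hearts, fewer cells of a type and less RNA per cell cannot be told apart.

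Acsl1, the main acyl-CoA synthetase of the heart, varied 1.19-fold, from 9651 to 11303 counts in control and from 9536 to 10992 in knockout libraries. The acyl-CoA thioesterases, which split acyl-CoA back to free fatty acid, differed among themselves. Acot1, the cytosolic enzyme (chromosome 12, 84009502 to 84017670), was at 264, 165 and 128 counts in control 490, 498 and 502 and at 203, 119 and 170 in knockout 492, 499 and 501. Acot2, the mitochondrial enzyme encoded beside it (chromosome 12, 83987861 to 83993877), was at 1657, 1216 and 1050, and at 1468, 1151 and 1496, in the same libraries. Both were highest in control 490 and had their 3 lowest values in control 498, control 502 and knockout 499, with ranges of 2.22-fold and 1.58-fold. Without control 490 the ranges were 1.70-fold and 1.42-fold, and the log2 fold change of Acot1 went from -0.15 to 0.14. The 2 genes are near-identical copies and may share reads, so how their counts divide is uncertain. Acot13, a small mitochondria-associated thioesterase, was steady at 1263 to 1306 counts in control and 1312 to 1368 in knockout libraries. Those groups did not overlap, yet the log2 fold change was 0.06 with an interval from -0.05 to 0.18.

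All 7 genes of the carnitine shuttle and its malonyl-CoA control had control 490 and knockout 492 and 501 as their 3 highest libraries. The shuttle starts with carnitine palmitoyltransferase 1, which malonyl-CoA inhibits. Cpt1a, its liver-type isoform (chromosome 19, 3322326 to 3385735), was at 1073, 906 and 722 counts in control 490, 498 and 502 and at 982, 862 and 1148 in knockout 492, 499 and 501. Its range of 1.59-fold was again 1.59-fold without control 490, but 1.33-fold without control 502. Its log2 fold change was 0.16 with an interval from -0.11 to 0.42. Leaving out a control gave 0.29 (490) or 0.0064 (502), and leaving out a knockout library gave 0.26 (499) or 0.049 (501). Cpt1b, the muscle-type isoform (chromosome 15, 89416405 to 89425862), was at 650, 509 and 479, and at 554, 462 and 573. Control 490 stood highest there, and without it the range went from 1.41-fold to 1.24-fold and the log2 fold change from -0.04 to 0.095.

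The inner-membrane steps followed. Slc25a20, the carnitine-acylcarnitine carrier, ran from 1351 to 1780 counts in control and from 1397 to 1597 in knockout libraries. Cpt2, which rebuilds acyl-CoA inside the matrix, ran from 2581 to 3307 and from 2675 to 3113, and Crat, which makes acetylcarnitine, from 5497 to 6151 and from 5178 to 5950. All 3 thus had their highest value in control 490. The enzymes that set malonyl-CoA were similar, Mlycd, which degrades it, at 1065 to 1443 and 1083 to 1326, and Acacb, which makes it at the mitochondrial surface, at 5017 to 5729 and 5063 to 5760. None of the 7 had a log2 fold change beyond the -0.04 of Cpt1b on the lower side or the 0.16 of Cpt1a on the upper.

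The acyl-CoA dehydrogenases, which carry out the first oxidation step on chains of different length, followed the common order least, with 1 of 4 genes. Acadvl, for very long chains, was the one that did, at 5679 to 6911 counts in control and 5838 to 6732 in knockout libraries. Acadl, for long chains (chromosome 1, 66830839 to 66863309), was at 3658, 3382 and 3437 counts in control 490, 498 and 502 and at 4032, 3680 and 3785 in knockout 492, 499 and 501. Every knockout library lay above every control. Acadl was the 1 gene of the 33 whose 95% interval left out 0 (log2 fold change 0.13, SE 0.052, interval 0.02 to 0.25), and its limma adjusted p was 1.00. In the annotation Acadl overlaps the pseudogene Gm15793, with a mean of 53.0 counts. Fabp3, Etfdh, Plin4, Crat and Lipe each overlap a gene with a mean of 24.7 to 388 counts, and Etfb and Plin2 overlap features with means of 0.18 to 3.68, so some reads of these genes are uncertain. Acads, for short chains (chromosome 5, 115110299 to 115119346), was at 1642, 1599 and 1555 in the controls and at 1523, 1533 and 1549 in the knockout libraries. These groups also did not overlap, in the other direction, with a log2 fold change of -0.06 and an interval from -0.17 to 0.05. Acadm, for medium chains and a PPAR alpha target, was at 6799 to 8322 in control and 6576 to 7581 in knockout libraries. Its log2 fold change was -0.10 (interval -0.25 to 0.06), and -0.015 without control 490.

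Electron transfer flavoprotein and its dehydrogenase pass electrons from these enzymes to ubiquinone. Etfdh ran from 3988 to 4548 counts in control and from 3869 to 4719 in knockout libraries, with the common order. The flavoprotein subunits did not have it: Etfa was at 467 to 586 and 486 to 629, and Etfb at 783 to 887 and 715 to 839, with knockout 501 below control 498 in both. Their log2 fold changes were 0.0034 for Etfa, 0.03 for Etfdh and -0.12 for Etfb, whose interval ran from -0.28 to 0.05. Without control 490 these log2 fold changes were 0.063, 0.092 and -0.067.

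The uncoupling proteins, carriers of the inner mitochondrial membrane, contrasted with each other. Ucp3, the muscle form and a PPAR target induced by fatty acids (chromosome 7, 100472991 to 100486432), was at 789, 427 and 277 counts in control 490, 498 and 502 and at 667, 271 and 869 in knockout 492, 499 and 501. It varied 2.85-fold among the controls and 3.21-fold in the knockout group, and 3.21-fold over all libraries with or without control 490. The group means were 498 ± 263 and 602 ± 304 (SD, n = 3), a log2 fold change of 0.25 (SE 0.37, limma adjusted p = 1.00). Single libraries moved it, to 0.65 without control 490 and -0.11 without control 502, and to 0.097, 0.75 or -0.094 when knockout 492, 499 or 501 was left out. Ucp2, the widely expressed form encoded next to it (chromosome 7, 100493337 to 100499629), was at 414, 356 and 386 and at 335, 374 and 557 in the same libraries. Knockout 501 stood highest, and knockout 492, among the 3 highest for Ucp3, was the lowest for Ucp2.

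**Figure D4:**
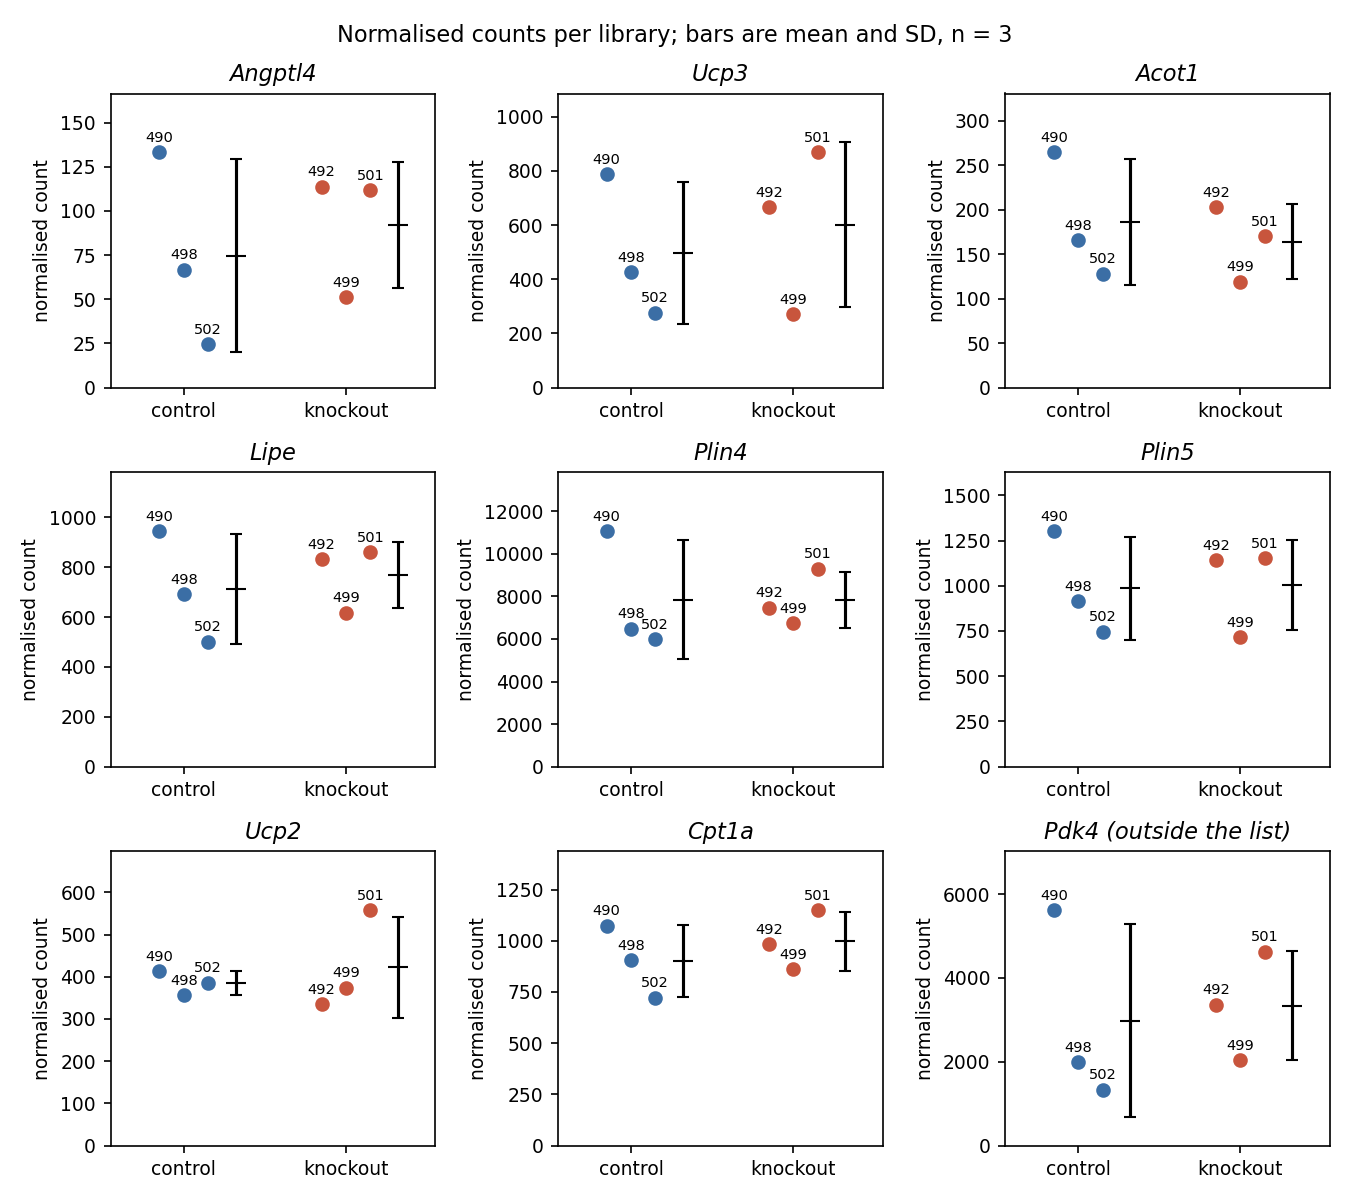
Normalised counts (y axis, from 0) in each library (points, labelled by library number) of the 8 genes with the widest ratio of highest to lowest library, and of Pdk4, which is outside the list, with the mean and SD of each group beside the points (n = 3). Controls and knockouts overlap in every panel, and library 490 is the highest control while 499 is the lowest knockout in every panel but that of Ucp2, where 492 is lowest.

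Lipid droplet genes split into variable and steady ones. Plin4 and Plin5 encode droplet coat proteins, the latter linking droplets to mitochondria, and lie next to each other on chromosome 17 (56100587 to 56109948 and 56111597 to 56117606). Plin5 was at 1301, 915 and 746 counts in control 490, 498 and 502 and at 1140, 717 and 1153 in knockout 492, 499 and 501. Plin4 was at 11060, 6482 and 5978, and at 7470, 6732 and 9312. Both had the common order, with ranges of 1.82-fold and 1.85-fold, or 1.61-fold and 1.56-fold without control 490. Lipe, hormone-sensitive lipase (chromosome 7, 25379527 to 25398486), was at 944, 692 and 502, and at 832, 618 and 861, again in that order. Its range was 1.88-fold, or 1.72-fold without control 490 and 1.53-fold without control 502. Plin4 and Lipe are abundant in fat cells, whose defining markers Adipoq, Lep and Retn were at 0 to 1.02 counts in every library. The summed markers of brown adipocytes followed the common order, at 132, 144 and 122 counts in control 490, knockout 492 and knockout 501 against 104, 101 and 100 in control 498, control 502 and knockout 499. Nearly all of that sum was Cidea, a droplet protein that is also on the list of further PPAR-responsive genes, while Ucp1, the defining gene of brown fat, was at 0 in 5 of the 6 libraries. The part of these markers in the levels of the droplet genes was not tested.

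The other droplet genes moved less. Pnpla2, adipose triglyceride lipase, which makes the first cut, ran from 1733 to 1977 counts in control and from 1871 to 2112 in knockout libraries. Plin2, the widespread coat protein and a PPAR target (chromosome 4, 86626910 to 86670217), was at 510, 503 and 418 in the controls and at 536, 511 and 526 in the knockout libraries. Its groups were separated narrowly, 511 in knockout 499 against 510 in control 490, and the log2 fold change was 0.14 (interval -0.04 to 0.32). The last enzymes of triglyceride synthesis differed from each other in spread, Dgat2 at 3230 to 3697 and 3335 to 3825, and Dgat1, steady in all libraries, at 188 to 198 and 189 to 205.

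To show what the promoters of these genes hold, 300-base windows (250 bases before to 50 after a RefSeq transcription start, GRCm38.p6) were searched on both strands for the direct repeat that PPAR and retinoid X receptor pairs are known to bind, AGGTCANAGGTCA. Windows were in the reference table for 25 of the 33 genes, Angptl4 not among them. The repeat without a mismatch stood in 0 of the 25 genes and in 0.0481% of all 27025 genes with a window. With up to 1 mismatch in the 12 fixed positions it stood again in 0 of the 25, against 0.644% of all genes. With up to 2 mismatches 5 of the 25 genes, 20%, had such a match, against 4.40% of all genes. A single half-site, AGGTCA or its reverse complement TGACCT, stood in 8 of the 25, 32%, against 18.1%. A window can hold the half-site as part of the longer match. Here the matches are written in the motif's own direction, with bases equal to the motif in capitals and the spacer and mismatches in lower case.
Ucp3, start 51 bases before the transcription start: AGGTttcAGGTCA
Cd36, 63 bases before: AaGTCAgAGGcCA
Plin2, 225 bases before: AGGTCAggGGTCc
Etfa, 77 bases before: AGGgCAaAGGTaA
Slc25a20, base 7 of the transcript: AGGTgAaAGGTCg

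Of the 5 genes, Ucp3, Cd36 and Slc25a20 had control 490, knockout 492 and knockout 501 as their 3 highest libraries, and Plin2 and Etfa did not. The variable genes Plin4, Plin5, Acot1, Lipe and Cpt1a had no match with up to 2 mismatches in their windows. A match is a description of letters and shows no binding. Upstream stretches of 250 bases are given for the gene of this group with the widest spread, Ucp3, and for Cd36 and Plin2, 1 that followed the common order and 1 that did not, each 5′ to 3′ on the gene's strand with the 13-base match in capitals. In Cd36 and Plin2 the match lies on the opposite strand, so the capitals show its reverse complement.
Ucp3 (chr7:100472741-100472990, + strand): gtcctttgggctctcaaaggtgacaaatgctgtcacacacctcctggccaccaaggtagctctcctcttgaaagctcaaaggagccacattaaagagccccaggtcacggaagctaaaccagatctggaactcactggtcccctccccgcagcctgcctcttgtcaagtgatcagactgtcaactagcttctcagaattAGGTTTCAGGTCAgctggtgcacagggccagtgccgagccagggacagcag
Cd36 (chr5:17835897-17836146, - strand): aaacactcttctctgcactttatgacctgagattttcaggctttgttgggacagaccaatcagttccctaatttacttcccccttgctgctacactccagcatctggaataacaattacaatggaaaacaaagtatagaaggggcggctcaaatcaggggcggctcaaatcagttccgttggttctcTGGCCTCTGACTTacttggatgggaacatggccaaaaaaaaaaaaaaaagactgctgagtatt
Plin2 (chr4:86670060-86670309, - strand): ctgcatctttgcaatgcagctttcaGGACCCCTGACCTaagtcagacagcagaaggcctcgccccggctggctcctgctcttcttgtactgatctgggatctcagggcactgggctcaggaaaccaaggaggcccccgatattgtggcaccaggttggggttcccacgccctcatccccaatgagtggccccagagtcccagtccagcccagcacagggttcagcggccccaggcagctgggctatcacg

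Other genes of the pathway were taken from 4 further lists. Over all tested features, limma called 0% higher and 0.0219% lower. At an unadjusted p under 0.05 it had 1.72% higher and 1.98% lower. Control 490, knockout 492 and knockout 501 were the 3 highest libraries in 6.59% of all tested features. Of 17 tested PPAR-responsive genes outside the 33, limma called 0, with 1 higher and 1 lower at an unadjusted p under 0.05, and 10 had control 490, knockout 492 and knockout 501 as their 3 highest libraries. Pdk4, the kinase that switches off pyruvate dehydrogenase when fat is burned, was at 5611, 1989 and 1338 counts in control 490, 498 and 502 and at 3364, 2038 and 4623 in knockout 492, 499 and 501. It varied 4.19-fold, 3.45-fold without control 490, with a log2 fold change of 0.36 (interval -0.47 to 1.19). Leaving out control 490, 498 or 502 gave 0.96, 0.21 or -0.078, leaving out knockout 499 or 501 gave 0.68 or 0.088, and edgeR gave 0.16 and DESeq2 0.17. The 2 of smallest p on that list were Tfrc, the transferrin receptor, with a log2 fold change of -0.26 (limma adjusted p = 0.589), and Cyp4b1 with 0.23 (limma adjusted p = 1.00).

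Of the 14 PPAR receptors and partners limma called 0, with 0 at an unadjusted p under 0.05, and 1, Ncoa1, had the common order. Ppara was at 1064, 971 and 990 counts in control 490, 498 and 502 and at 983, 855 and 916 in knockout 492, 499 and 501. That is a log2 fold change of -0.14 (interval -0.28 to 0.01), and Ppard stood at -0.19 (-0.40 to 0.01). Both intervals include 0. Ppara had control 490 as its highest control and knockout 499 as its lowest knockout library, as most of the 33 genes did. Its value in knockout 501 was below that in control 502, so it did not have the common order. The part of Ppara in the levels of the 33 genes was not tested.

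Of 17 tested genes of fatty acid oxidation outside the 33, limma called 0, with 0 higher and 4 lower at an unadjusted p under 0.05, and 4 had the common order. Acaa2, among those with the common order, is also on the list of PPAR-responsive genes and is counted in both. Echs1, the enoyl-CoA hydratase, had a log2 fold change of -0.33 and Hadhb, the beta subunit of the trifunctional protein, of -0.34. DESeq2 called both lower (adjusted p = 0.00458 and 0.00866), where it called 0.456% of features with an adjusted p. The authors' deposited table, also a DESeq2 result of these libraries, called both as well (DESeq2 adjusted p = 0.00479 and 0.00905). edgeR called 0 genes of this list. None of these calls included any of the 33. Of 28 tested genes of uptake, activation and storage outside the 33, limma called 0, with 1 higher and 0 lower at an unadjusted p under 0.05, and 6 had the common order. The 2 of smallest p were Acot9, with a log2 fold change of 0.30, and Gpam, which starts glycerolipid synthesis, with 0.16 (limma adjusted p = 1.00 for both).

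Other measures of the libraries were set beside the order of the fatty acid genes. The share of reads on mitochondrial DNA separated the genotypes, at 69.4 to 70.0% in control and 71.5 to 71.9% in knockout libraries, and did not follow the order. Summed cardiomyocyte markers were highest in control 490 and knockout 492 and lowest in knockout 499. Macrophage markers were at 1743 to 1971 in control and 1825 to 2058 in knockout libraries, fibroblast markers at 7889 to 7970 and 7724 to 8546, and blood markers at 17307 to 22619 and 16887 to 23640. Summed skeletal muscle markers, nearly all of them Acta1, which stressed heart muscle also expresses, lay at 2207 to 4206 in control and 4457 to 5768 in knockout libraries without overlap, while Myh4 was at 0 in all 6. Acta1 had a log2 fold change of 0.64 (limma adjusted p = 0.744), 0.35 without control 490. Of the marker sums, that of the brown adipocyte list, given above, had the same 3 highest libraries as most of the 33 genes. The part of these measures in the spread of the 33 genes was not tested.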

How the data were processed

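Gene values are signal that the authors deposited as normalised counts, which are gene counts divided by 1 size factor per library. The submitters' processing notes name DESeq2 1.22.2, R 3.5.2, featureCounts, Bowtie2 2.3.4.1 and bedtools, with the builds mm10 and GRCm38. The sources used here give neither strand setting nor annotation, and overlapping or antisense genes may share reads. The authors' deposited DESeq2 table gives log2 fold changes, a test score and p-value columns, used as given. Of 156689 nonzero values, 100% came out whole, within 0.01, once divided by the value of 1 read. Symbols matched 54686 of 54715 Ensembl identifiers without version numbers; 36 features are mitochondrial.

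limma 3.58.1 (R 4.3.3, trended prior, 2-sided) was fitted to log2(value + 1), which understates changes of low genes, for features with a mean of at least 10, with genotype as the only term. edgeR 4.0.16 quasi-likelihood and DESeq2 1.42.0 were run on the recovered reads, where they called 5 and 33 features. Scripts were tested on simulated data. The replicates differed beyond counting noise (chi-square per degree of freedom 3.52 to 15.0).

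The genes and lists were chosen with earlier results of these data known. All 33 genes are named. From the other lists the rule names Ppara, Pdk4, called genes and the 2 of smallest p, and markers are named as measures. Naming by level per kilobase was not done, since no transcript lengths were used, so levels are not compared between genes. Sequences and positions are from RefSeq GRCm38.p6. Mitochondrial RNA-end libraries were not analysed here. Alternatives covered the pseudocount, filter, scaling, limma's prior, the tools above and leaving out each library.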

Additional observations from a re-analysis of the deposited data

How the results depend on the processing

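All 19 fits, the main one and 18 alternatives, called 0 of the 33 genes. DESeq2 and the authors' deposited table gave no adjusted p for Angptl4, Acot1 and Dgat1, so they could not call these. The count over all features was 4 and went to 12 without a filter, 37 under equal totals, 0 without a trended prior, 12 with robust moderation and 33 with DESeq2 and in the authors' deposited table, and lay between 1 (without control 498, control 502 or knockout 499) and 8 (without control 490) when 1 library was left out. The cause was not tested. Of the 33 genes, 8 kept their sign in every alternative, namely Cpt1a, Acadm, Acadl, Acads, Lpl, Etfb, Plin2 and Pnpla2, in part at values near 0 (Cpt1a at 0.0064 without control 502), and Acot13 changed sign only under equal totals.

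Equal totals shift all features alike, the median log2 fold change by -0.07, and turned 16 of the 33 negative: Cpt2 (-0.026), Slc25a20 (-0.042), Acadvl (-0.030), Fabp3 (-0.018), Fabp4 (-0.0019), Acsl1 (-0.051), Slc27a1 (-0.039), Etfa (-0.067), Etfdh (-0.041), Acot13 (-0.0086), Mlycd (-0.053), Acacb (-0.034), Plin4 (-0.028), Plin5 (-0.042), Dgat1 (-0.055) and Dgat2 (-0.041). Equal totals outside mitochondrial DNA gave 0.015 for Cd36, and DESeq2 and the authors' deposited table gave -0.00049 for Plin4.

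Leaving out 1 library gave log2 fold changes from -0.014 to 0.098 for Acacb, -0.015 to 0.13 for Acadvl, -0.38 to 0.14 for Acot1, -0.060 to 0.27 for Acot2, -0.026 to 0.088 for Acsl1, -0.12 to 1.08 for Angptl4, -0.080 to 0.077 for Cd36, -0.12 to 0.095 for Cpt1b, -0.026 to 0.15 for Cpt2, -0.065 to 0.036 for Crat, -0.013 to 0.044 for Dgat1, -0.030 to 0.077 for Dgat2, -0.11 to 0.080 for Etfa, -0.045 to 0.098 for Etfdh, -0.019 to 0.14 for Fabp3, -0.017 to 0.14 for Fabp4, -0.085 to 0.37 for Lipe, -0.077 to 0.14 for Mlycd, -0.078 to 0.96 for Pdk4, -0.12 to 0.32 for Plin4, -0.15 to 0.25 for Plin5, -0.046 to 0.15 for Slc25a20, -0.11 to 0.20 for Slc27a1, -0.12 to 0.25 for Ucp2 and -0.11 to 0.75 for Ucp3. With 3 libraries against 3, exact permutation tests cannot go below 0.1, and the fewest reads behind a library's value for one of the 33 genes, 24, are those of Angptl4 in control 502. No paired analysis was possible because the table's columns carry library numbers but no replicate numbers.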
